A study of Mus musculus with 18 samples.

Results

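The colony-stimulating factors and their receptors are 8 genes, Csf1, Csf2, Csf3, Csf1r, Csf2ra, Csf2rb, Csf2rb2 and Csf3r, taken by name from the 22852 gene symbols of each count table. The 3 ligand genes encode CSF1 (M-CSF), CSF2 (GM-CSF) and CSF3 (G-CSF), and the other 5 encode receptor chains. All 8 were among the 11305 genes that passed the filter on low counts, Csf2 only through the LPS-stimulated group. RNA-Seq read pairs were counted per gene in 18 libraries of bone marrow-derived macrophages (BMDMs) from female C57BL/6 mice, in 6 groups of 3 numbered replicates. The mice's age and the number of animals behind the replicates were not given in the sources used here, so p-values measure the spread between these cultures.

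All groups were grown from bone marrow in medium that held L929-cell conditioned medium, the usual source of CSF1 for such cultures, so every group, controls included, had received CSF1 protein. Unstimulated BMDMs received no LPS, the bacterial lipopolysaccharide sensed by TLR4. LPS-primed BMDMs received LPS at 100 ng/ml for 24 h. LPS-tolerant BMDMs received the same priming and then, in fresh medium, LPS at 10 ng/ml for 3 h. A further pair of groups were LPS-primed and LPS-tolerant BMDMs given carboplatin, a DNA-crosslinking platinum drug, at 25 µM from 1 h before priming. The paper describes the drug as present during the 24 h of priming. LPS-stimulated BMDMs received LPS at 10 ng/ml alone, for which the labels and methods gave no duration. The LPS-primed and LPS-stimulated groups therefore differed in dose, and their times of exposure could not be compared. Whether the lone dose lasted as long as the later 3 h dose is likewise not known. That limit holds for every comparison of LPS-tolerant with LPS-stimulated BMDMs.

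CSF1 is required for the survival and differentiation of most macrophages and signals through CSF1R, a receptor tyrosine kinase that also binds IL-34. CSF2 binds a specific alpha chain, encoded by Csf2ra, which pairs with a beta chain that activates JAK2 and STAT5. In mice the beta chain has 2 genes, Csf2rb, whose product is shared with the IL-3 and IL-5 receptors, and Csf2rb2, whose product serves IL-3. CSF3 acts on CSF3R, best known for granulocyte production. Activated macrophages are a known source of CSF2 and CSF3, whose mRNAs are short-lived through AU-rich elements in their 3′ ends.

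Those elements are shown here because the 3 largest fold changes among the 8 genes in LPS-stimulated against unstimulated BMDMs were those of the ligands. Counted on the annotated transcripts of GRCm39, the Csf2 3′ UTR held 9 ATTTA pentamers in 317 bases, overlapping ones included, with 4 of them within the longer form TTATTTATT. The Csf3 3′ UTR held 6 pentamers in 672 bases and that of Csf1 held 4 in 2111 bases. The median over 18634 genes with a 3′ UTR was 1, and 9.26% of these genes held at least as many as Csf2, 18.2% at least as many as Csf3 and 29.7% at least as many as Csf1. Of the receptor genes Csf1r held 3 and Csf2ra 1, the latter within 1 TTATTTATT, and Csf2rb, Csf2rb2 and Csf3r held 0; Csf1 and Csf3 held 0 of the longer form. The densest stretch of each ligand is given 5′ to 3′ with the pentamers in capitals, on the minus strand of chr11:54138155-54138184 for Csf2, the plus strand of chr11:98593810-98593839 for Csf3 and the minus strand of chr3:107648425-107648454 for Csf1.
Csf2: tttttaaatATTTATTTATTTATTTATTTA
Csf3: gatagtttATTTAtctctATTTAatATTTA
Csf1: tttatataaggtcATTTAaatatctATTTA

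Between 6869667 and 14708099 read pairs per library were counted on genes. Macrophage markers were present throughout: all 9 listed genes were detected in every library, from 58 counts of Mertk to 178495 counts of Lyz2. The 9 neutrophil markers summed to 1.41 CPM (read counts scaled to the library's total) or less, with Ly6g, Mpo, Cxcr2 and Retnlg at 0 in every group. The 8 lymphocyte markers summed to 0.39 CPM or less, the 5 dendritic cell markers to 1.19 CPM or less, and the 5 mast cell markers were at 0 in every library. The 7 fibroblast and stromal markers summed to 0.088-0.683 CPM in unstimulated BMDMs and to 2.43-9.51 CPM in the other groups, most of it Dcn. The 5 endothelial markers summed to 151-207 CPM in unstimulated BMDMs and to 24.1-149 CPM elsewhere, most of it Vwf, with Tek at 0 in 5 of the 6 groups. The part of these last genes in the results was not tested. In such bulk samples, fewer cells of a type and less RNA per cell cannot be told apart.

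Levels are CPM, with the totals scaled by TMM, and differences are log2 fold changes (log2FC) with the standard error (SE) from edgeR's quasi-likelihood test over all 11305 genes, with p adjusted by Benjamini-Hochberg. A gene was called at an adjusted p under 0.05 between LPS treatments and under 0.25 for carboplatin. Levels of different genes were compared per kilobase of exon (FPKM). On that scale unstimulated BMDMs held Csf1r at 336 ± 40.9 FPKM (SD, n = 3), Csf2ra at 74.7 ± 19.5, Csf2rb2 at 52.4 ± 11.0, Csf2rb at 26.2 ± 4.70 and Csf3r at 10.5 ± 3.25 FPKM. The exon length joins all annotated exons, 7277 bases for Csf2rb and 4740 for Csf2rb2, while their transcripts aligned below hold 4764 and 4740. Part of the FPKM gap between these 2 is thus one of length, and unstimulated BMDMs held 191 and 248 CPM of them. The ligands were under 1 FPKM in these cells. In LPS-stimulated BMDMs, Csf1 reached 14.7 ± 5.88 FPKM and Csf3 10.8 ± 4.52 FPKM. Csf2 was at 22.6 ± 28.9 FPKM there, a mean set mainly by 1 library.

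Among the ligands, Csf1 was high in LPS-stimulated BMDMs and low in the other 5 groups. The gene (ENSMUSG00000014599, GRCm39 chr3:107648364-107667806, minus strand) was counted at 6.88, 2.82 and 2.15 CPM in unstimulated replicates 1 to 3. It stood at 126, 64.9 and 68.5 CPM in LPS-stimulated BMDMs. LPS-primed BMDMs held 4.77, 4.40 and 5.74 CPM, and LPS-tolerant BMDMs 7.07, 4.17 and 12.4 CPM. The carboplatin groups held 6.24, 4.14 and 4.43 CPM when primed and 4.65, 4.77 and 4.93 CPM when tolerant. No LPS-stimulated library overlapped any other group, whereas the other 5 groups, ordered by mean from LPS-tolerant to unstimulated, each overlapped the next.

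Csf1 rose in LPS-stimulated against unstimulated BMDMs by a log2FC of 4.46 (SE 0.43, 22.0-fold; edgeR adjusted p = 3.05e-07). Without unstimulated replicate 1, which had the highest Csf1 of its group, the log2FC was 5.13. LPS-primed and unstimulated BMDMs differed by a log2FC of 0.35, with a 95% interval of -0.55 to 1.24 (adjusted p = 0.615), and by 1.01 without unstimulated replicate 1 (adjusted p = 0.0987). Csf1 fell in LPS-tolerant against LPS-stimulated BMDMs, with a log2FC of -3.46 (SE 0.41, adjusted p = 6.18e-06), while LPS-tolerant and LPS-primed BMDMs differed by 0.65 (interval -0.22 to 1.52, adjusted p = 0.396).

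The promoter of Csf1 is shown because this gene's response to the lone 10 ng/ml dose was the most precisely measured of the ligands'. In the RefSeq promoter table (GRCm38.p6), which matched 5 of the 8 genes, the 250 bases before its start lie on the minus strand of chr3:107760470-107760719. They are given 5′ to 3′ with the match to the kappa-B consensus, the binding motif of NF-κB, in capitals; the match reads on the strand opposite to the gene, 154 to 145 bases before the start.
Csf1 promoter: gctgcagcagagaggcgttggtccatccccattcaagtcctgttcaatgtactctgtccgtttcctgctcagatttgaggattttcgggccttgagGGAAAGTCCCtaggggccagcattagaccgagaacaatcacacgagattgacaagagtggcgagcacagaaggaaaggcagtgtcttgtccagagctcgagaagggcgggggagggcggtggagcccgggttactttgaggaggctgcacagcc

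That consensus was found in 3.90% of 32851 promoters of the same length, searched on both strands. The 250-base windows of Csf2, Csf2ra, Csf2rb2 and Csf3r held no match to it, and none of the 5 windows held TGANTCA, the AP-1 motif, or GAGATTCC, the start of the CK-1 element of cytokine promoters, which were in 6.75% and 0.755% of promoters. A match is a run of letters and no match says nothing of a factor outside this window. The windows lie before RefSeq starts in GRCm38.p6, which were not compared with the GRCm39 gene positions given here. The absence of a match for Csf2 therefore does not mean that its promoter lacks these elements.

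Csf2 was found at 0 in all 3 unstimulated libraries and was counted above 6 read pairs in the LPS-stimulated group alone. The gene (ENSMUSG00000018916, chr11:54138097-54140493, minus strand) had 350, 66 and 43 counts in LPS-stimulated replicates 1 to 3, which is 44.8, 4.90 and 4.55 CPM. LPS-primed BMDMs had 1, 0 and 5 counts and LPS-tolerant BMDMs 4, 0 and 6. With carboplatin, primed cells had 0, 0 and 1 count and tolerant cells 2, 0 and 0. Replicate 1 of the LPS-stimulated group lay far above its group, but the lowest of the 3 libraries was still above each library of the other groups. The other 5 groups overlapped one another.

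Against a floor of 3 counts per unstimulated library, Csf2 was at least 62.8-fold higher in LPS-stimulated BMDMs, and at least 16.4-fold higher without LPS-stimulated replicate 1. Because these libraries alone brought the gene past the filter, its differences from that group are given as a description, with no test. Csf2 was lower in the tolerant cells than after the lone dose, with a log2FC of -5.52 (SE 1.09), which was -3.59 without that replicate, -4.85 without LPS-tolerant replicate 2 and -6.20 without LPS-tolerant replicate 3. DESeq2 gave Csf2 no adjusted p in any of the 8 comparisons. LPS-primed and LPS-tolerant BMDMs differed in Csf2 by a log2FC of 0.75 (interval -2.45 to 3.96, edgeR adjusted p = 0.840).

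Csf3 followed another order, with its highest means in the 2 LPS-tolerant groups and a wide spread between replicates. The gene (ENSMUSG00000038067, chr11:98592089-98594458, plus strand) had 0, 2 and 1 counts in unstimulated BMDMs. LPS-primed BMDMs held 8.52, 0.612 and 1.61 CPM, LPS-tolerant BMDMs 115, 3.25 and 11.1 CPM, and LPS-stimulated BMDMs 11.4, 11.7 and 22.7 CPM. With carboplatin, Csf3 stood at 15.8, 4.74 and 4.76 CPM in primed cells and at 86.2, 11.5 and 23.6 CPM in tolerant cells. Replicate 1 was the highest library in each of the 4 groups primed at 100 ng/ml and the lowest in the LPS-stimulated group. Unstimulated BMDMs lay below all other libraries, and each of the other groups overlapped its neighbour in the order of means.

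Csf3 rose in LPS-stimulated against unstimulated BMDMs (edgeR adjusted p = 0.00263). As the unstimulated group held 3 counts in all, the size is given as a ratio of summed CPM, 157, with a 95% counting interval of 53.4 to 764. The fitted log2FC was 7.13 and was 7.93 without unstimulated replicate 2, and limma-voom did not call it (adjusted p = 0.0801). For LPS-primed against unstimulated BMDMs the ratio was 37.3 (interval 12.4 to 184), with an adjusted p of 0.068. The fitted log2FC of 5.05 rested on LPS-primed replicate 1, without which it was 3.41 (adjusted p = 0.345) and the LPS-primed mean went from 3.58 to 1.11 CPM; it was 5.84 without unstimulated replicate 2 (adjusted p = 0.140). With the replicate number as a block this comparison passed (adjusted p = 0.0142), beside 18.9% of all genes called higher in the blocked fit. It also passed with DESeq2 (adjusted p = 0.00196) and in edgeR with no low-count filter (0.042), but not with limma-voom.

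In LPS-tolerant against LPS-primed BMDMs, the log2FC of Csf3 was 3.57 with an SE of 1.12 (adjusted p = 0.0669), and the same-numbered libraries differed by 3.75, 2.41 and 2.78. The block gave 3.16 (adjusted p = 0.00447), with 9.67% of all genes called higher in that fit. DESeq2 (adjusted p = 0.032) and edgeR with no low-count filter (0.0394) also called Csf3 higher here, and limma-voom did not. The unblocked comparison passed without LPS-primed replicate 1 (adjusted p = 0.047) or LPS-tolerant replicate 2 (0.0309), and without LPS-tolerant replicate 1 its log2FC was 0.97 (adjusted p = 0.615). LPS-tolerant and LPS-stimulated BMDMs differed in Csf3 by a log2FC of 1.49 (interval -0.60 to 3.58, adjusted p = 0.267), and the sign turned to -1.11 without LPS-tolerant replicate 1. The block left this difference uncalled (0.21, adjusted p = 0.806).

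**Figure D1:**
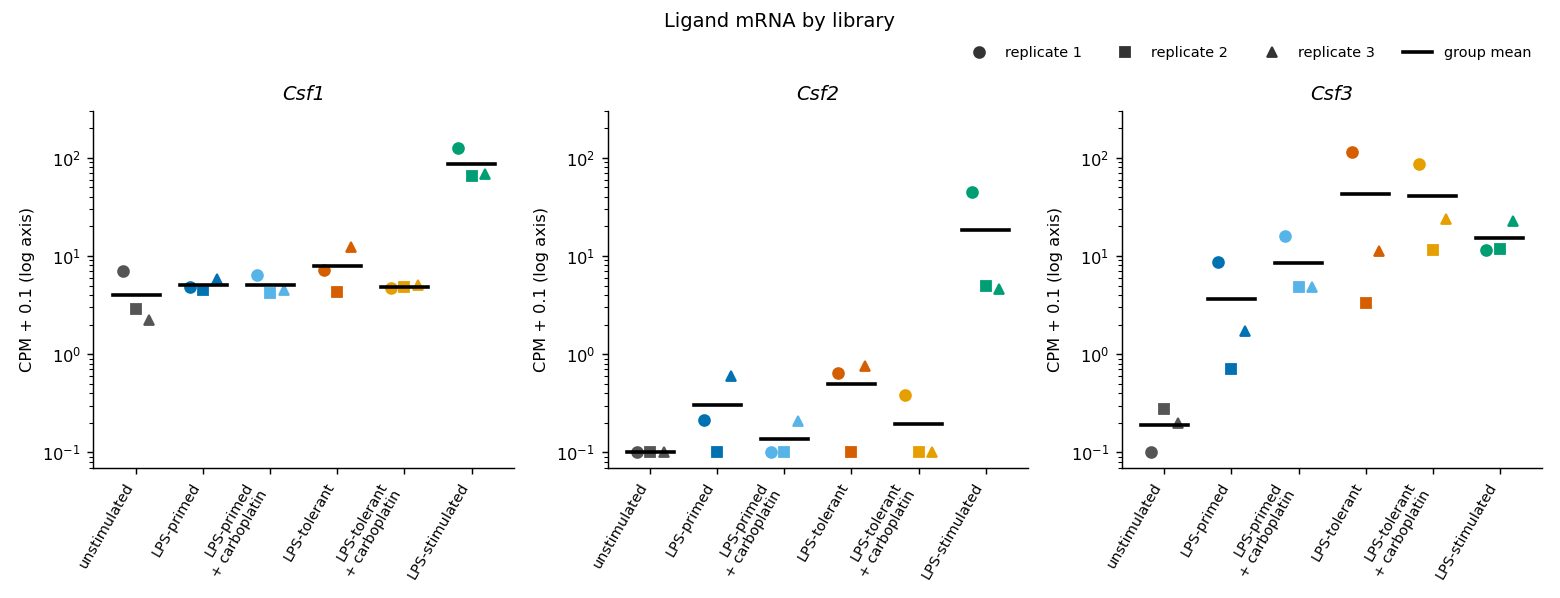
CPM plus 0.1 (log axis) of Csf1, Csf2 and Csf3 in each of the 18 libraries, by group on the x axis, with symbols for the replicate number and a bar at the group mean. Csf1 and Csf2 stand apart in the LPS-stimulated group, where Csf1 spans 64.9 to 126 CPM, and Csf3 spans 3.25 to 115 CPM in LPS-tolerant BMDMs.

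Among the receptors, Csf1r, the CSF1 receptor, was the most abundant member and differed little between groups. The gene (ENSMUSG00000024621, chr18:61229714-61266535, plus strand) held 2125, 2641 and 2651 CPM in unstimulated BMDMs, and ranked between 24th and 53rd of all genes by CPM over the 18 libraries. LPS-primed BMDMs held 2619, 2489 and 2779 CPM, LPS-tolerant BMDMs 2620, 2265 and 2655 CPM, and LPS-stimulated BMDMs 1910, 2028 and 2335 CPM. With carboplatin the values were 2665, 2055 and 2729 CPM in primed and 2305, 2218 and 2606 CPM in tolerant cells. Every group overlapped its neighbour in the order of means, from LPS-primed down to LPS-stimulated.

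Csf1r passed in none of the 8 comparisons. Its log2FC was 0.09 in LPS-primed (interval -0.21 to 0.39, edgeR adjusted p = 0.709) and -0.24 in LPS-stimulated against unstimulated BMDMs (interval -0.54 to 0.06, adjusted p = 0.166). Scaling by library size alone lowered the median of all genes by 0.34 in the latter comparison, and Csf1r was then called lower (log2FC -0.58, adjusted p = 0.00275). In LPS-tolerant against LPS-stimulated BMDMs its log2FC was 0.27 (interval -0.04 to 0.57, adjusted p = 0.166), which the block called higher at an adjusted p of 0.049, beside 22.9% of all genes. Csf1r shares 1461 exon bases with Hmgxb3 on the opposite strand, whose highest count was 720, and the strand setting of the counting was not given in the sources used here.

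Csf2ra, the specific chain of the GM-CSF receptor, passed in none of the 8 comparisons. The gene (ENSMUSG00000059326, chr19:61212395-61216892, minus strand) held 276, 218 and 162 CPM in unstimulated BMDMs and 268, 193 and 169 CPM in LPS-primed BMDMs. LPS-tolerant BMDMs held 332, 129 and 239 CPM, and LPS-stimulated BMDMs 258, 138 and 160 CPM. With carboplatin the values were 286, 139 and 183 CPM in primed and 328, 132 and 225 CPM in tolerant cells. Replicate 1 was the highest library in all 6 groups, and the groups overlapped throughout. The log2FC was -0.06 in LPS-primed (interval -0.84 to 0.73, edgeR adjusted p = 0.934) and -0.24 in LPS-stimulated against unstimulated BMDMs (interval -1.02 to 0.55, adjusted p = 0.617).

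Both beta chain genes rose with either LPS dose. Csf2rb (ENSMUSG00000071713, chr15:78209952-78238047, plus strand) held 158, 226 and 189 CPM in unstimulated BMDMs, 507, 515 and 541 CPM in LPS-primed BMDMs and 420, 528 and 725 CPM in LPS-stimulated BMDMs. LPS-tolerant BMDMs lay between, at 390, 331 and 317 CPM, and did not overlap either the primed or the unstimulated group. The carboplatin groups held 557, 469 and 541 CPM when primed and 473, 378 and 383 CPM when tolerant.

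Csf2rb rose with a log2FC of 1.45 (SE 0.18, edgeR adjusted p = 1.53e-05) in LPS-primed and of 1.55 (SE 0.18, adjusted p = 2.93e-06) in LPS-stimulated against unstimulated BMDMs. Tolerant cells held less Csf2rb than LPS-stimulated ones, with a log2FC of -0.69 (SE 0.18, adjusted p = 0.00676). That call was lost without LPS-stimulated replicate 3 (-0.45, adjusted p = 0.0565), its highest library. Against LPS-primed BMDMs the tolerant log2FC was -0.59 (SE 0.18), with an adjusted p of 0.0614 that became 0.0227 with the block and 0.0257 with scaling by library size alone.

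Csf2rb2 (ENSMUSG00000071714, chr15:78166707-78189921, minus strand) moved with its neighbour on chromosome 15, over a narrower range. It held 230, 307 and 208 CPM in unstimulated, 422, 530 and 454 CPM in LPS-primed and 406, 540 and 598 CPM in LPS-stimulated BMDMs. LPS-tolerant BMDMs stood at 380, 357 and 312 CPM. With carboplatin, primed cells held 439, 456 and 475 CPM and tolerant cells 422, 409 and 378 CPM. The unstimulated libraries lay below all other groups.

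Csf2rb2 rose by a log2FC of 0.91 (SE 0.16, edgeR adjusted p = 4.91e-04) in LPS-primed and 1.05 (SE 0.16, adjusted p = 5.23e-05) in LPS-stimulated BMDMs. Tolerant cells again held less than LPS-stimulated ones (log2FC -0.56, SE 0.16, adjusted p = 0.0133), a call lost without LPS-tolerant replicate 3 (adjusted p = 0.0652), without LPS-stimulated replicate 3 (0.0742) and in a fit of these 2 groups alone (0.0547). Against LPS-primed BMDMs the log2FC was -0.42 (adjusted p = 0.142), which passed with the block (0.0485), beside 8.32% of all genes called lower there.

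The 2 genes are near copies: their transcripts were 91.0% identical over 4655 aligned bases, and 19.0% of the 50-base windows of Csf2rb2 recurred exactly in Csf2rb. How read pairs that fit both were counted is uncertain, so each level is uncertain too. Csf2rb took 43.5% ± 3.57 (SD, n = 3) of the counts on both in unstimulated BMDMs, 52.8% ± 3.0 in LPS-primed and 51.7% ± 2.78 in LPS-stimulated BMDMs. The unstimulated libraries, at 40.7% to 47.6%, did not overlap those of any other group, whose lowest value was 48.0%. Summed, the 2 genes rose with a log2FC of 1.17 (SE 0.17, edgeR adjusted p = 4.90e-05) in LPS-primed and 1.29 (SE 0.17, adjusted p = 7.36e-06) in LPS-stimulated BMDMs.

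Csf3r, the G-CSF receptor, was highest in LPS-primed BMDMs. The gene (ENSMUSG00000028859, chr4:125918262-125938236, plus strand) held 42.6, 72.9 and 46.0 CPM in unstimulated and 152, 229 and 152 CPM in LPS-primed BMDMs. LPS-tolerant BMDMs held 79.8, 114 and 81.8 CPM and LPS-stimulated BMDMs 67.5, 104 and 104 CPM. Replicate 2 was the highest library of each group. The LPS-primed group overlapped no group but its carboplatin-treated counterpart, and the neutrophil markers given above were at or near 0 in the same libraries.

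Csf3r rose in LPS-primed against unstimulated BMDMs with a log2FC of 1.72 (SE 0.27, edgeR adjusted p = 1.25e-04). In LPS-stimulated BMDMs the log2FC was 0.77 (SE 0.26, adjusted p = 0.0216), a call lost without unstimulated replicates 1 (adjusted p = 0.0801) or 3 (0.0718), without LPS-stimulated replicates 2 (0.0761) or 3 (0.0749), and with library size scaling (0.172). Csf3r was lower in LPS-tolerant than in LPS-primed BMDMs, with a log2FC of -0.95 (SE 0.26, adjusted p = 0.0394). Same-numbered libraries differed by -0.93, -1.0 and -0.89, and the blocked fit gave an adjusted p of 6.88e-05. Without the block the call was lost when LPS-primed replicate 2 (adjusted p = 0.172) or 3 (0.0655), or LPS-tolerant replicate 1 (0.124) or 3 (0.142), was left out. LPS-tolerant and LPS-stimulated BMDMs differed in Csf3r by a log2FC of 0.00, with an interval of -0.55 to 0.55.

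**Figure D2:**
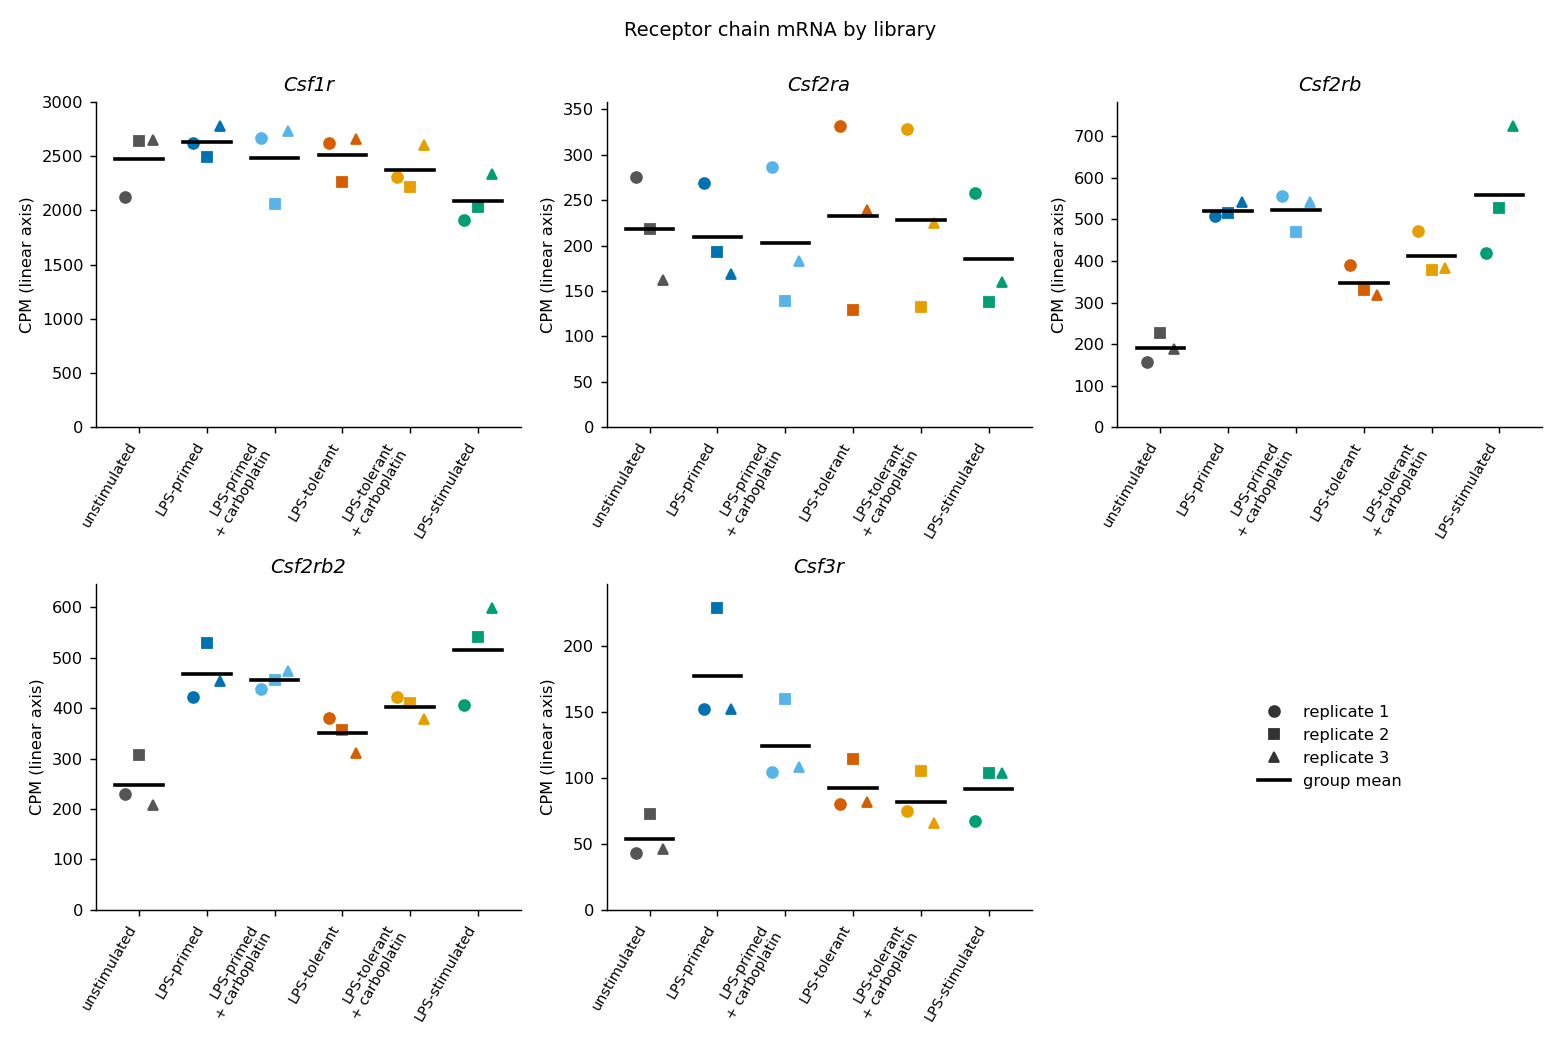
CPM (linear axes from 0) of the 5 receptor chain genes in each of the 18 libraries, by group on the x axis, with symbols for the replicate number and a bar at the group mean. Csf1r and Csf2ra overlap across groups, Csf2rb and Csf2rb2 are lowest in unstimulated BMDMs, and Csf3r reaches 229 CPM in LPS-primed BMDMs.

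Counted over the 8 genes, 3 rose with LPS priming (Csf2rb, Csf2rb2 and Csf3r) and 0 fell, where 12.1% of all tested genes were called higher and 13.1% lower. With the lone 10 ng/ml dose 6 rose, all but Csf1r and Csf2ra, and 0 fell, beside 24.3% higher and 26.9% lower. These 6, the lower counts against LPS-stimulated BMDMs and the contrast of responses include Csf2, which entered the test through the LPS-stimulated libraries alone and supports none of them. Of the tolerant against the LPS-stimulated group, 4 were lower and 0 higher, beside 18.3% and 16.2%. In LPS-tolerant against LPS-primed BMDMs 1 was lower and 0 higher, beside 2.71% and 3.6%. With a log2FC over 2 required as well, the counts were 3 higher in LPS-stimulated BMDMs, the ligands (6.42% of all genes), and 2 lower in the tolerant against the LPS-stimulated group, Csf1 and Csf2 (5.07%). These comparisons share groups and are not independent of one another.

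The question of tolerance is how the 10 ng/ml dose acted in primed cells relative to naive cells. It was asked as 1 contrast, the LPS-tolerant minus LPS-primed difference less the LPS-stimulated minus unstimulated difference. As the lone dose had no stated duration, the 2 differences may not share a length of exposure. This contrast was called negative for 5 of the 8 genes, Csf2 among them, and positive for 0, while 13.3% of all genes were called negative and 10.5% positive. It was -3.81 (SE 0.58, edgeR adjusted p = 1.19e-04) for Csf1, and -4.46 without unstimulated replicate 1. For Csf2rb it was -2.14 (SE 0.26, adjusted p = 1.11e-05), for Csf3r -1.72 (SE 0.37, adjusted p = 0.00256) and for Csf2rb2 -1.47 (SE 0.23, adjusted p = 1.58e-04). The Csf3r call was lost when replicate 3 of every group was left out (-1.59, adjusted p = 0.0885). The contrast also equals the LPS-tolerant minus LPS-stimulated log2FC less the LPS-primed minus unstimulated one, so a level raised by priming lowers it. For Csf3r, LPS-tolerant and LPS-stimulated BMDMs differed by a log2FC of 0.00, and LPS-primed BMDMs stood 1.72 above unstimulated ones. These log2FCs were -0.69 and 1.45 for Csf2rb, -0.56 and 0.91 for Csf2rb2, and -3.46 and 0.35 for Csf1.

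For Csf2 the contrast is a description with no test, because the LPS-stimulated libraries alone brought the gene past the filter. Its fitted size rests on the prior count because the unstimulated group was at 0. Csf2 was also no longer among the genes past the threshold without LPS-primed replicate 3, in a fit of the 4 groups alone and with limma-voom. Csf3 gave -3.56 (interval -8.56 to 1.44, edgeR adjusted p = 0.314), which was called at -6.17 without LPS-tolerant replicate 1 (adjusted p = 0.019), and stood at -1.93 without LPS-primed replicate 1 (0.649) and -4.34 without unstimulated replicate 2 (0.387). Csf1r gave 0.18 (interval -0.25 to 0.60) and Csf2ra 0.39 (interval -0.72 to 1.5). Of the 3 genes past a size of 2, Csf1, Csf2 and Csf2rb, the like share over all genes was 4.93%.

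**Figure D3:**
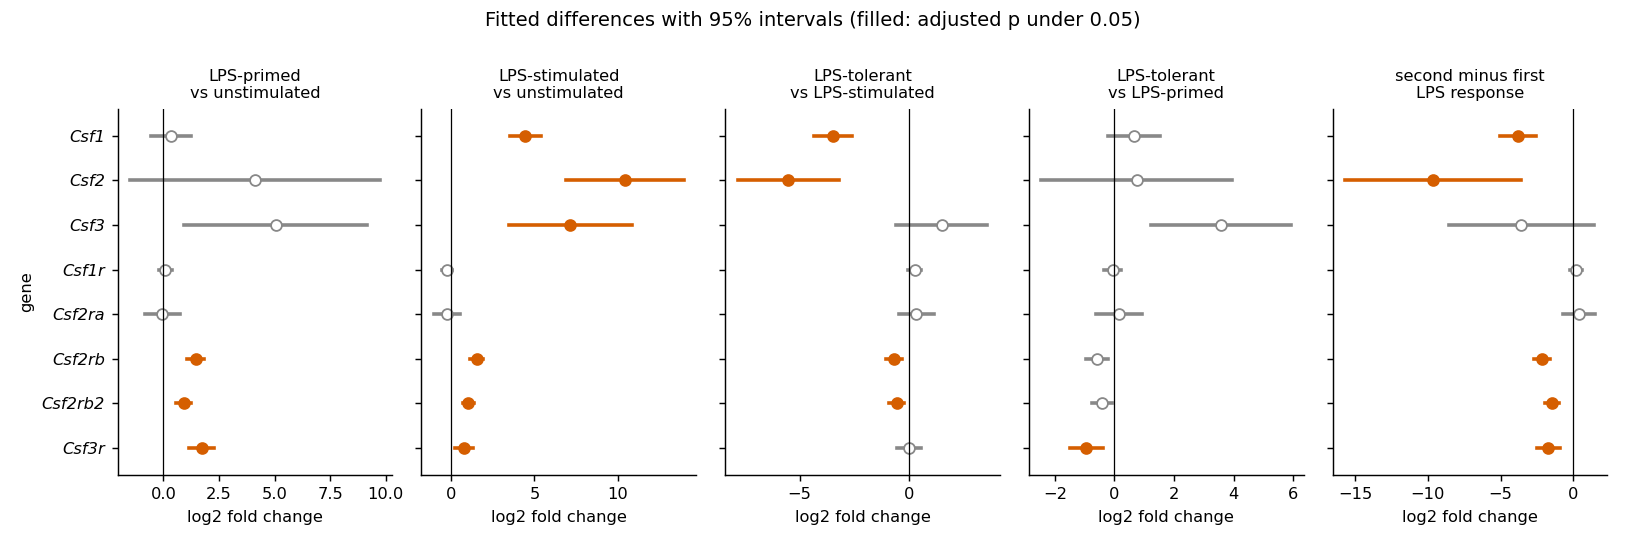
Fitted log2FC (x axes, each with its own range) of the 8 genes (y axis) in 4 comparisons of groups and in the contrast of the responses to the later and the lone 10 ng/ml dose; points are estimates, lines 95% intervals, and filled points passed an adjusted p of 0.05. The LPS-stimulated comparison has 6 filled points, all to the right, and the contrast has 5, all to the left. The filled points of Csf2 are a description, as it passed the filter through the LPS-stimulated group alone.

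Carboplatin was tested in LPS-primed and in LPS-tolerant BMDMs. By edgeR's test without the replicate block 0 of the 8 genes were called in either state at an adjusted p under 0.25. In that fit 0 passed an unadjusted p of 0.05, and DESeq2 and limma-voom also called 0. Over all genes, 0.0973% were called higher and 1.11% lower in primed cells, and 0.239% and 1.42% in tolerant cells. With the block, 890 rather than 136 genes were called in primed cells and 784 rather than 187 in tolerant cells. Of the 8 genes the block called Csf3r alone, in primed cells. The difference between the carboplatin effects in the 2 states was called for 0% of genes in either direction and for none of the 8.

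The gene nearest to a call was Csf3r in primed cells, at 105, 159 and 108 CPM with carboplatin against 152, 229 and 152 CPM without. Each library with carboplatin was lower than the same-numbered one without it, by a log2 ratio of -0.54, -0.52 and -0.49. The unblocked log2FC was -0.51 (SE 0.26, interval -1.06 to 0.03, edgeR adjusted p = 0.755). With the replicate block it was -0.52 (SE 0.13), called lower at an adjusted p of 0.0455, where 5.17% of all genes were called lower. In tolerant cells Csf3r stood at 74.6, 105 and 66.0 CPM with carboplatin, with same-numbered log2 ratios of -0.10, -0.11 and -0.31 (log2FC -0.17, adjusted p = 1).

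Csf3 had same-numbered log2 ratios of 0.89, 2.96 and 1.56 with carboplatin in primed cells (log2FC 1.20, interval -1.14 to 3.55, edgeR adjusted p = 0.95). In tolerant cells they were -0.42, 1.82 and 1.09 (log2FC -0.09, interval -2.12 to 1.94). The unblocked mean of the tolerant groups rests on replicate 1 in both. Csf2rb in tolerant cells had ratios of 0.28, 0.19 and 0.27 (log2FC 0.25, interval -0.13 to 0.63), and Csf2rb2 0.15, 0.20 and 0.28 (log2FC 0.20, interval -0.14 to 0.55). Csf1r was at -0.08 in both states, with intervals of -0.38 to 0.22. Csf2 had at most 6 counts per library in these 4 groups, and its summed counts were 6 without and 1 with carboplatin in primed cells, a ratio of 5.81 (counting interval 0.705 to 267). In tolerant cells they were 10 and 2, a ratio of 4.68 (counting interval 0.996 to 43.9).

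**Figure D4:**
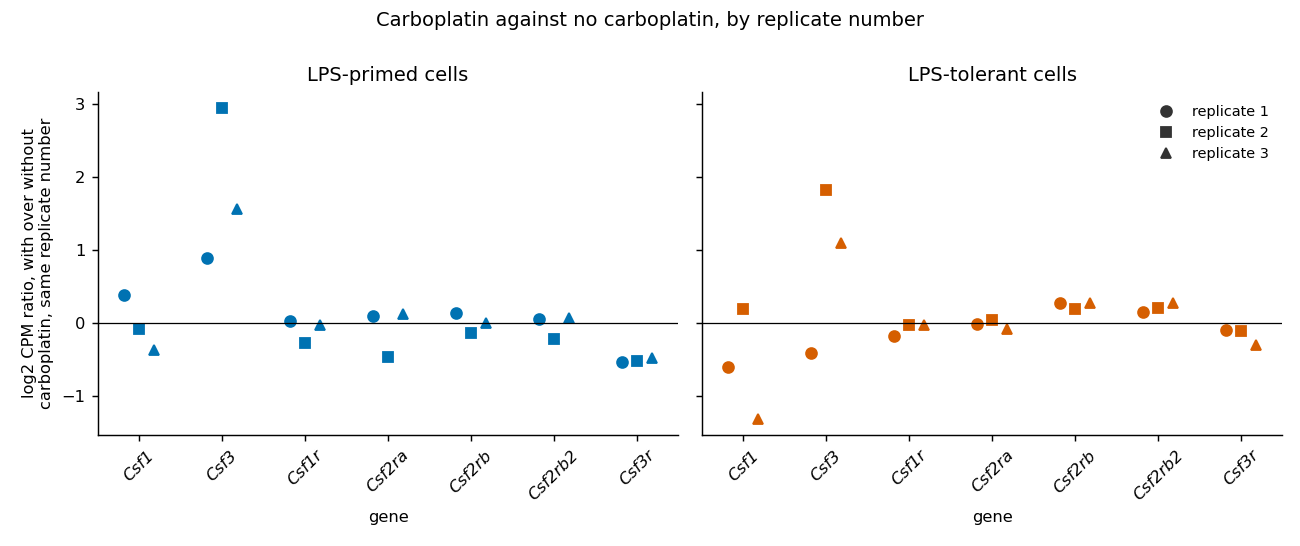
Log2 ratio of CPM with over without carboplatin (y axis) between libraries of the same replicate number, for 7 genes (x axis) in LPS-primed and LPS-tolerant BMDMs; Csf2 is left out for its low counts. The 3 Csf3r points lie close together near -0.5 in primed cells, and the Csf3 points spread from 0.89 to 2.96 there.

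The genes most like each member over the 18 libraries were found by Pearson's r of log2 CPM, as a description in which the libraries of a group share their treatment. Csf1 was followed most closely by Sox9, Rhou and Col27a1 (r = 0.961, 0.958 and 0.958), and Csf2 by Sele, Ripk2 and Inava (0.934, 0.924 and 0.924). Csf3 went with Phlda1, Fosl1 and Plpp3 (0.946, 0.939 and 0.932). For Csf2rb they were Pfkfb3, Cd274 and Nos2 (0.95, 0.939 and 0.918), and for Csf2rb2 Slc11a2, Pfkfb3 and Cd274 (0.953, 0.916 and 0.913), so the beta chain genes had 2 of their 3 in common.

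Csf3r went with Gab1, Pgap2 and Twf1 (r = 0.914, 0.884 and 0.867), Csf2ra with Rabac1, Cd37 and Atp5e (0.909, 0.905 and 0.897), and Csf1r with Hectd4, Thra and Rab3d (0.861, 0.860 and 0.853). Among the members themselves, r was 0.953 between Csf2rb and Csf2rb2 and 0.944 between Csf1 and Csf2. Csf3 and its receptor gene Csf3r had an r of 0.117, and Csf1 and Csf1r one of -0.559.

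The list of partner ligands and receptor chains also held Kit, Kitl, Flt3 and Flt3l, which belong to other receptor systems. Of its 10 genes 5 were tested. Il34, the other CSF1R ligand, had 15, 26 and 28 counts in LPS-stimulated BMDMs and 0 in every other library, at least 7.89-fold higher than in unstimulated BMDMs and at least 6.70-fold higher than in LPS-tolerant BMDMs. It too passed the filter through the LPS-stimulated libraries alone, so this is a description with no test. Il3, Il5 and Il5ra were at 0 throughout. Il3ra, the IL-3 receptor alpha chain, held 64.7 ± 11.2 CPM (SD, n = 3) in unstimulated and 55.1 ± 14.4 CPM in LPS-primed BMDMs (edgeR adjusted p = 0.549). For all 5 lists, the shares called over all tested genes were those given above: 12.1% higher and 13.1% lower with priming, 24.3% and 26.9% with the lone dose, and 16.2% and 18.3% in tolerant against LPS-stimulated BMDMs.

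Of that list 2 genes were called lower with priming, Kitl, which encodes stem cell factor (log2FC -3.82, SE 0.59, edgeR adjusted p = 1.15e-04), and its receptor gene Kit. Kit reached the level of the filter on low counts in 4 libraries, of the unstimulated and LPS-stimulated groups. Without the unstimulated libraries it would not have passed, so its fall with priming is a description with no test. Kit went from 42, 13 and 16 counts to 0, 0 and 1, a ratio of 60.9 with a counting interval of 10.6 to 2439. In LPS-stimulated against unstimulated BMDMs 2 were lower: Flt3l, the FLT3 ligand, had a log2FC of -1.81 (adjusted p = 9.94e-05) and Kitl of -1.33 (0.0309). The only gene called higher was Il34, a call fixed by the filter and left out here. Between the tolerant and LPS-stimulated groups Flt3l was higher (1.14, adjusted p = 0.00768) and Kit was lower (adjusted p = 0.0137), with Il34 again left out. The list's median log2FC was -0.23, -1.11 and -1.19 in these 3 comparisons, also with Il34 at its bound, beside -0.02, -0.09 and 0.00 over all tested genes.

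Of 25 genes of receptor-proximal signalling, 10 rose and 6 fell with the lone 10 ng/ml dose, at a median log2FC of 0.23, beside 24.3% and 26.9% of all genes. Stat5a, a transcription factor used by the beta chain, went from 32.0 ± 1.55 to 485 ± 40.2 CPM (log2FC 3.92, SE 0.17, edgeR adjusted p = 3.01e-11). Jak2, the kinase bound to that chain, rose by 5.04 (SE 0.28) on the log2 scale, and the kinase gene Src by 5.20 (SE 0.32). Against LPS-stimulated BMDMs, tolerant cells had 11 lower and 4 higher (18.3% and 16.2% of all genes), at a median of -0.36, with Stat5a at -4.18 (adjusted p = 5.80e-11), Jak2 at -2.74 and Src at -2.56. With priming 6 rose and 2 fell (median -0.03; 12.1% and 13.1% of all genes), among them Jak2 (2.72) and Src (2.48).

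Of 13 tested genes of feedback and receptor turnover, 6 rose and 1 fell with priming (median 0.92), beside 12.1% and 13.1% of all genes. With the lone dose 6 rose and 4 fell (median 0.55), beside 24.3% and 26.9%. Socs2 reached the level of the filter on low counts in 4 libraries, of the LPS-tolerant and LPS-stimulated groups. Without the LPS-stimulated libraries it would not have passed, so Socs2 supports no count in comparisons with that group. Socs3, an inhibitor that binds CSF3R, rose by 6.09 on the log2 scale (SE 0.50, edgeR adjusted p = 1.06e-07) with priming and by 8.42 (SE 0.54, adjusted p = 2.44e-09) with the lone dose. Cish, a STAT5 target that restrains cytokine receptors, held 0.381 ± 0.0779 CPM in unstimulated, 101 ± 43.8 CPM in LPS-stimulated and 0.818 ± 0.656 CPM in LPS-tolerant BMDMs. Rhbdf2, which serves the sheddase ADAM17, rose with priming (1.33) and with the lone dose (2.50), and Cblb, a ubiquitin ligase, fell with priming (-1.54). In LPS-tolerant against LPS-stimulated BMDMs 4 were higher and 4 lower (median 0.19; 16.2% and 18.3% of all genes), among them Cish (-7.03), Socs3 (-3.05) and Inpp5d (1.46), which encodes the phosphatase SHIP1.

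Of 16 tested STAT5 and CSF response genes, 8 rose and 1 fell with the lone dose (24.3% and 26.9% of all genes), at a median of 1.15, among them the kinase gene Pim1 (log2FC 3.62, edgeR adjusted p = 9.71e-10), Myc (4.84) and Ets2 (3.60). With priming 3 rose and 5 fell (median -0.21; 12.1% and 13.1% of all genes), with Ets2 at 3.97, Pim1 at 1.58 and Pparg, a GM-CSF-dependent regulator of alveolar macrophages, at -5.76 (adjusted p = 1.44e-07). Tolerant against LPS-stimulated cells had 7 lower and 3 higher (median -0.77; 18.3% and 16.2% of all genes). Pim1 had a log2FC of -3.84 there. Irf4 held 2, 0 and 0 counts in tolerant against 121, 135 and 169 in LPS-stimulated BMDMs, a ratio of 188 (counting interval 51.7 to 1558), and the chemokine gene Ccl22 0, 0 and 1 against 163, 72 and 134, a ratio of 327 (58.3 to 12934). Ccl22, counted in both comparisons with the LPS-stimulated group, passed the filter through that group alone and supports neither count. Irf4 reached the level of the filter in 5 libraries, of the unstimulated and LPS-stimulated groups. Without the LPS-stimulated libraries it would not have passed, so Irf4 supports neither count and its ratio is a description.

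Of 10 factors that act on AU-rich mRNA, 6 rose and 2 fell with the lone dose (median 0.76), beside 24.3% and 26.9% of all genes. With priming 1 rose and 1 fell (median 0.04), beside 12.1% and 13.1%. Zfp36, whose product tristetraprolin promotes decay of Csf2 mRNA, went from 81.5 ± 14.0 CPM in unstimulated to 891 ± 188 CPM in LPS-stimulated BMDMs (log2FC 3.45, edgeR adjusted p = 1.25e-09) and stood at 67.6 ± 12.6 CPM in LPS-tolerant BMDMs (log2FC -3.72 against LPS-stimulated, adjusted p = 1.65e-09). Zc3h12a, the RNase Regnase-1, rose with priming (2.57) and with the lone dose (4.32), and Elavl1, the stabilizer HuR, had log2FCs of 1.44 with the lone dose and -0.83 in tolerant against LPS-stimulated BMDMs. Zfp36l2 fell with priming (-1.02), and Hnrnpd stood at 0.22 there (adjusted p = 0.260). Here 4 were lower and 1 higher in tolerant than LPS-stimulated cells (median -0.63; 18.3% and 16.2% of all genes), Khsrp among the lower (-0.59).

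With carboplatin, 0 genes of the 5 lists were called by edgeR without the replicate block. The blocked fit called 2 in primed cells, Rc3h2 higher (log2FC 0.70, adjusted p = 0.237) and Il3ra lower (-0.55, 0.237), beside 2.71% of all genes higher and 5.17% lower. In tolerant cells it called Cish (1.48, adjusted p = 0.147) and Pim1 (0.51, 0.176) higher and Myc (-0.60, 0.165) and Lyn (-0.43, 0.184) lower, beside 2.33% higher and 4.61% lower. Genes were named here after their values were seen.

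**Figure D5:**
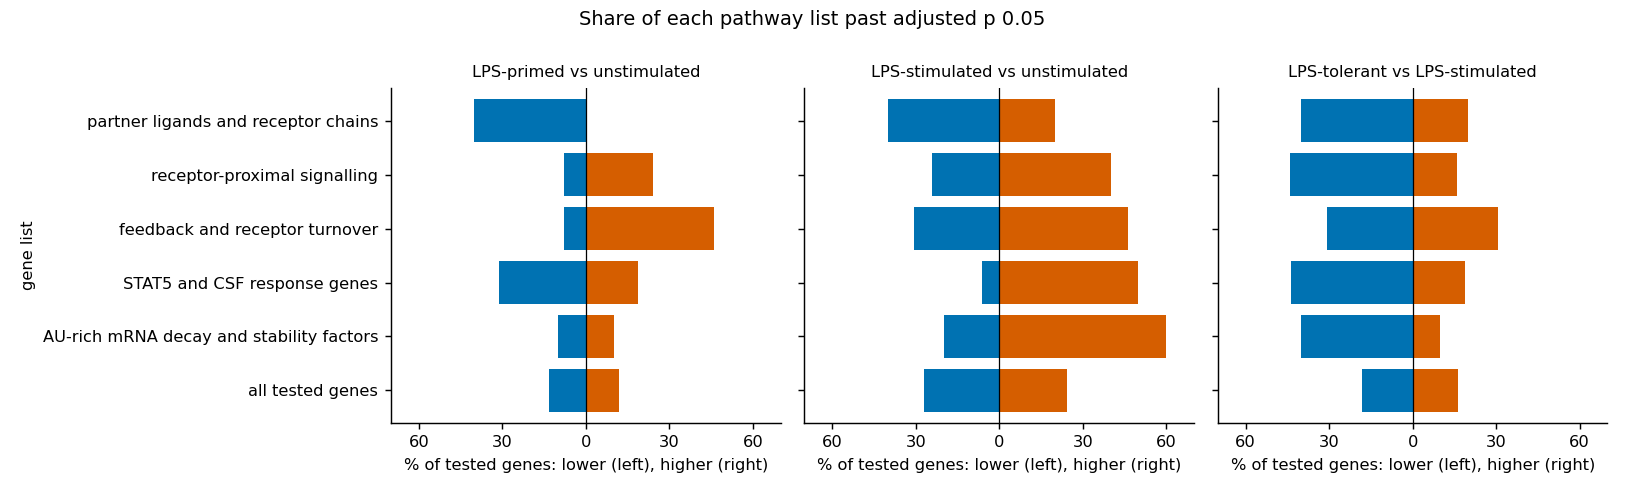
Share of the tested genes of each of 5 pathway lists, and of all tested genes, that passed an adjusted p of 0.05 (x axis, percent; lower to the left, higher to the right) in 3 comparisons. With the lone 10 ng/ml dose, 6 of 10 AU-rich decay and stability factors and 8 of 16 STAT5 and CSF response genes were higher, beside 24.3% of all tested genes. The shares include Il34 and Ccl22, which passed the filter through the LPS-stimulated group alone. The tested genes also include Irf4 and Socs2, which would not have passed without that group, and Kit, which would not have passed without the unstimulated group.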

How the data were processed

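RNA of BMDMs was sequenced by the authors as stranded, paired-end mRNA libraries. HISAT2 (alignment to GRCm39) and HTSeq-count (read pairs per gene) were used by the authors; versions, annotation and strand option are not given in the sources used here. The deposited values are raw counts, 1 table per library, and 41.5-46.9% of reads were assigned to no gene and were left out. Of all reads, 26.5-33.1% were in the no-feature class of HTSeq-count, having overlapped no region that was counted for a gene. The rest of those left out were unaligned, not uniquely aligned, of low alignment quality or ambiguous between genes. The members and gene lists were chosen with earlier results of these data known.

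Counts were analysed with edgeR 4.0.16 in R 4.3.3 (filterByExpr, minimum count 10 and total 15, TMM, 1 mean per group over 18 libraries, prior count 0.125), giving 11305 tested genes. Intervals are at 95% and, for counts, cover counting error only; a fold against a group at 0 uses 3 counts per library. Named genes were all members, the 3 genes most correlated with each, and of each list the 3 with the smallest p in LPS-primed against unstimulated, LPS-stimulated against unstimulated and LPS-tolerant against LPS-stimulated BMDMs; 1 gene that this rule named is not reported here. The code was tested on simulated data. Exon lengths, positions and 3′ ends are from GENCODE vM39.

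Replicate numbers come from the labels. After removal of group means, libraries of the same number correlated at 0.349 on average (lowest 0.0631, 44 of 45 pairs above 0.1) and those of other numbers at -0.17. The removal of group means itself pushes the value for other numbers below 0, so it is no separate evidence of pairing. From the same-number correlations, the numbers were read as paired in 7 of the 8 comparisons, all but the contrast of responses to 10 ng/ml. The main fit held no replicate term, so every p-value, interval and count not named as blocked leaves this pairing out. No replicate libraries were duplicates: the lowest chi-square per degree of freedom was 18.0. Alternatives were RLE size factors, library size alone, no filter, DESeq2 1.42.0, limma-voom (limma 3.58.1), the groups compared alone, the replicate block, a prior count of 2, a log2FC over 2, the beta chain genes summed, and leaving out each library. Leaving out a whole replicate number was added after the data were seen.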

Additional observations from a re-analysis of the deposited data

Results flagged for a closer look

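For 5 of the 8 genes the contrast of responses was called negative in edgeR's quasi-likelihood fit, where 13.3% of all tested genes were called negative and 10.5% positive. It sets the change from LPS-primed to LPS-tolerant BMDMs against that from unstimulated to LPS-stimulated BMDMs, so a level raised by priming also lowers it. Csf2 passed the filter on low counts through the LPS-stimulated libraries alone, so its call is no independent evidence. The contrast was -3.81 for Csf1, -2.14 for Csf2rb, -1.72 for Csf3r and -1.47 for Csf2rb2 on the log2 scale, and that of Csf3r was not called without replicate 3 in every group (-1.59, adjusted p = 0.0885). For Csf2 it was fitted as -9.63, a value that depends on the prior count since unstimulated BMDMs held 0 counts, and that was -5.94 with a prior count of 2. Without LPS-primed replicate 3 it was -7.94 and no longer past the threshold. It was -7.71 without LPS-stimulated replicate 1, -8.96 without LPS-tolerant replicate 2 and -10.3 without LPS-tolerant replicate 3. The 2 arms of the contrast also differ in that the primed cells had 24 h of earlier exposure and a change of medium, and these cannot be told apart from the earlier dose. The later dose lasted 3 h and the lone dose had no stated duration, so the arms may also differ in length of exposure.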

How the results depend on the processing

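Of 8 comparisons, LPS-tolerant against LPS-primed BMDMs depended most on the processing: against 0 members higher and 1 lower, no low-count filter gave 1 higher, DESeq2 1 higher and 2 lower, library size alone 2 lower, and the replicate block 1 higher and 3 lower. Library size alone also gave 1 lower in LPS-stimulated against unstimulated BMDMs. The block gave 1 higher in LPS-tolerant against LPS-stimulated BMDMs, 1 lower with carboplatin in primed cells and 6 lower in the contrast of responses, the sixth being Csf3 (-4.62, adjusted p = 0.0365), and changed no other count by more than 1.5 times. Its calls over all genes went from 713 to 2034 in LPS-tolerant against LPS-primed BMDMs, from 136 to 890 and from 187 to 784 with carboplatin in primed and tolerant cells, from 2847 to 4367 with priming and from 2691 to 4091 in the contrast. With a log2FC over 2 required, members higher fell from 3 to 0 with priming and from 6 to 3 with the lone dose, and members lower from 4 to 2, from 1 to 0 and from 5 to 3 in LPS-tolerant against LPS-stimulated, against LPS-primed and in the contrast. Leaving out 1 library, or 1 replicate number in every group, gave 2 to 4 members lower in LPS-tolerant against LPS-stimulated, 0 to 1 higher and 0 to 1 lower in LPS-tolerant against LPS-primed BMDMs, and 3 to 6 lower in the contrast; the cause was not tested. No called direction reversed. Depth limits Csf2, which reached 10 counts in 3 libraries and was at 0 in 9.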
